A study of Rattus norvegicus with 12 samples.

Results

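Neutrophil granule and calprotectin genes were followed in rat lung after brain death and after an agonist of the sphingosine 1-phosphate receptor S1P1. The genes are Camp, Lcn2, S100a8, S100a9, Mmp8, Mmp9, Ngp, Mpo and Fpr1, and they were found by their symbols in the annotation of the array. Of the 9 genes, 6 had a probe set, 5 of them 1 and Mmp9 2, among 14217 genes with a value. Ngp, Mpo and Fpr1 matched no probe set with an annotated symbol and were not analysed here.

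Neutrophils carry ready-made proteins in granules and in the cytosol and release them within minutes of activation. Camp encodes the cathelicidin antimicrobial peptide and Lcn2 encodes lipocalin 2, which binds bacterial siderophores; both are proteins of the specific granules. S100a8 and S100a9 encode the subunits of calprotectin, a calcium- and zinc-binding complex that fills the neutrophil cytosol and is also made by monocytes. Mmp8 encodes neutrophil collagenase and Mmp9 encodes gelatinase B, the defining enzyme of gelatinase granules. The lung holds a large pool of neutrophils in its capillaries, and in rodents epithelial cells and macrophages can make lipocalin 2 and gelatinase B as well.

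Lungs came from male wild-type Sprague Dawley rats of 250 to 350 g with free access to food and water. Each of 4 groups had 3 arrays. Sham animals are labelled as controls. In BD animals brain death was brought about by inflating a 4 Fr Fogarty balloon catheter outside the dura. SEW animals had 0.1 mg/kg SEW-2871, the S1P1 agonist, by vein, and BD/SEW animals had that dose 15 min after brain death. Neither the time of sampling nor any surgery in the SEW animals is given. Animals are not numbered either, and p-values therefore measure only the spread between the 3 arrays of a group, which may be technical. SEW arrays may differ from sham or BD/SEW arrays by surgery or time of sampling too, which cannot be told apart from the named factor. Whole lung tissue was measured, and fewer neutrophils cannot be told apart from less RNA of a gene per neutrophil.

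All levels are log2 values of probe sets as deposited. Across the 12 arrays the median probe set lay between 7.34 and 7.41, the lower quartile between 5.56 and 5.66 and the highest probe set between 14.66 and 14.87. The mean of 10 alveolar epithelial markers was 12.66 to 12.86 in sham, 12.88 to 13.06 in BD, 12.90 to 13.26 in SEW and 13.04 to 13.12 in BD/SEW. The sham arrays thus lay below all others by this mean. The array weights that limma estimates were lowest for sham replicate 3 (0.247) and SEW replicate 2 (0.318). Cardiac muscle transcripts (mean of 17 markers) read 9.42 to 10.38 in sham, 11.33 on the second BD array and 5.82 to 8.07 on the other 8 arrays. Adipose transcripts (mean of 12 markers) read 8.60 to 9.56 in sham, 6.34, 9.06 and 6.55 in BD, 6.64 to 7.02 in SEW and 6.46 to 7.19 in BD/SEW. Airway epithelial transcripts (9 markers) read 10.67 to 10.87 in sham, 8.91, 10.80 and 9.85 in BD, 7.88 to 9.70 in SEW and 8.54 to 9.14 in BD/SEW. A fit with the cardiac mean as a covariate is given beside the calls.

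RefSeq promoter sequences (assembly GRCr8) were given for Camp, Lcn2, S100a9 and Mmp8, and no entry was given for S100a8 and Mmp9. S100a8 and S100a9 are neighbours on the chromosome in the RefSeq gene table. The sequences are shown because 5 motifs of regulators and of the core promoter were searched in them on both strands, and capitals mark the matches. Each reads 5′ to 3′ along the strand of the gene and comprises the 250 bases before its start, less any bases inside an annotated transcript (71 in Lcn2 and 17 in Mmp8). Camp lies on the minus strand at chr8:118721999-118722248, Lcn2 on the minus strand at chr3:36081852-36082030, S100a9 on the minus strand at chr2:178490623-178490872 and Mmp8 on the plus strand at chr8:13008640-13008872.
Camp: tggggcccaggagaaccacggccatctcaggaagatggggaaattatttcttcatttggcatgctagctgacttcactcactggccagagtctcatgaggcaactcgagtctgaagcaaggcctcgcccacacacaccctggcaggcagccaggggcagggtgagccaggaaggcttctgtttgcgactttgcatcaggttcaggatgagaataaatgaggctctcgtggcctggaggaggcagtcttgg
Lcn2: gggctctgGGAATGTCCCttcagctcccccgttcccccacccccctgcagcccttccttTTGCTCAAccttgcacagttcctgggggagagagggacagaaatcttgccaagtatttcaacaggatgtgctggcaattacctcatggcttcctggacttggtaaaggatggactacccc
S100a9: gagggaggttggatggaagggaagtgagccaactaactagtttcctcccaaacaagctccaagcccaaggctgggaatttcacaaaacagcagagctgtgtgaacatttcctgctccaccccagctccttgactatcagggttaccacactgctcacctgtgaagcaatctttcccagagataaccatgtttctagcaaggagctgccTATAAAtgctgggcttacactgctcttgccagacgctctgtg
Mmp8: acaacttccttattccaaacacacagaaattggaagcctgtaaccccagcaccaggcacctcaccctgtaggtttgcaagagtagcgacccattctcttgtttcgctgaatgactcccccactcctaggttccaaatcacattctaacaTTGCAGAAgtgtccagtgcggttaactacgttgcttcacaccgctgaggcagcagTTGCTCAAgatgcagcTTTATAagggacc
The C/EBP motif, written TTGCNNAA, is that of a factor family that works in granulocyte differentiation. It matched in Lcn2, 191 to 184 bases before the start, and at 2 places in Mmp8, 101 to 94 and 46 to 39 bases before it. Of 33469 promoters of the same length, 9.22% held a match. The NF-kB consensus matched in Lcn2, 242 to 233 bases before the start, against 6.33% of all promoters. The TATA box, written TATAAA, matched in S100a9, 42 to 37 bases before the start, and on the other strand in Mmp8, 30 to 25 bases before it, against 12.9% of all promoters. The AP-1 motif, written TGANTCA, and the PU.1 motif, written GAGGAAG, had 0 matches in the 4 members and matched in 6.34% and 10.2% of all promoters. Camp held none of the 5 motifs. The matches are letters in these windows and not measured binding sites.

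The antimicrobial genes come first. Camp (probe set 1393603_at) was 9.82, 9.32 and 10.06 in sham lungs, 9.92, 9.58 and 10.71 in BD lungs, 6.81, 8.64 and 6.72 in SEW, and 11.37, 10.78 and 11.22 in BD/SEW (log2 values of replicates 1, 2 and 3). All 3 SEW arrays were below every other array and all 3 BD/SEW arrays above every other array, while sham and BD overlapped. The group means were 9.73 ± 0.38 in sham lungs, 10.07 ± 0.58 in BD lungs, 7.39 ± 1.08 in SEW, and 11.12 ± 0.31 in BD/SEW (SD, n = 3). SEW replicate 2 lay between the other SEW arrays and the sham arrays, and the range of Camp over the 12 arrays was 4.65 log2 units.

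Lcn2 (probe set 1387011_at) varied far less, over a range of 1.68. It was 12.84, 12.54 and 11.72 in sham lungs, 12.11, 12.48 and 11.84 in BD lungs, 12.43, 12.06 and 11.68 in SEW, and 13.36, 13.07 and 12.71 in BD/SEW. The sham, BD and SEW arrays overlapped, with means of 12.37 ± 0.58, 12.14 ± 0.32 and 12.06 ± 0.38. The BD/SEW arrays (13.05 ± 0.33) were above all BD and SEW arrays, and sham replicate 1 lay above BD/SEW replicate 3.

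The calprotectin genes sat near the top of the measured scale. S100a8 (probe set 1368494_at) was 13.42, 13.34 and 13.36 in sham lungs, 13.42, 13.30 and 13.74 in BD lungs, 11.69, 13.41 and 12.24 in SEW, and 13.98, 13.78 and 13.86 in BD/SEW. S100a9 (probe set 1387125_at) was 13.81, 13.66 and 13.62 in sham lungs, 13.70, 13.70 and 14 in BD lungs, 12.54, 13.86 and 13 in SEW, and 14.27, 14.05 and 14.11 in BD/SEW. In both genes SEW replicates 1 and 3 were the lowest of all arrays, SEW replicate 2 was at the sham and BD level, and the 3 BD/SEW arrays were the highest. The SD over the 3 arrays of S100a8 was 0.04 in sham lungs, 0.23 in BD lungs, 0.88 in SEW, and 0.10 in BD/SEW. Centred on its own mean, S100a8 differed from S100a9 by 0.19 (root mean square over 12 arrays), the smallest distance of any pair among the 6 genes. This distance depends on the range over the arrays too, which was 2.29 in S100a8 and 1.73 in S100a9. How far the scanner's upper limit compresses differences at these levels was not tested.

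The proteases differed from each other. Mmp9 (probe set 1398275_at) was 10.42, 9.46 and 10 in sham lungs, 10.05, 9.86 and 10.61 in BD lungs, 6.96, 9.10 and 7.46 in SEW, and 11.26, 10.89 and 11.34 in BD/SEW. As in Camp, the SEW arrays were below and the BD/SEW arrays above all others, and sham and BD overlapped. Its second probe set, 1369166_at, gave the same order of group means on its own scale, 7.79 ± 0.56 in sham lungs, 8.17 ± 0.52 in BD lungs, 6.10 ± 1.10 in SEW, and 9.40 ± 0.29 in BD/SEW. In SEW replicates 1 and 3 that probe set read 5.41 and 5.53, below the lower quartile of the arrays, and whether these values stood above background was not measured. SEW replicate 2 read 7.37 on it, below the lowest sham array (7.46).

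Mmp8 (probe set 1387735_at) was 9.89, 9.13 and 6.23 in sham lungs, 8.93, 9.27 and 9.77 in BD lungs, 7.48, 9.95 and 8.13 in SEW, and 10.83, 10.41 and 9.84 in BD/SEW. Sham replicate 3 was the lowest of the 12 arrays, and SEW replicate 2 was the third highest. The sham, BD and SEW arrays overlapped, and the BD/SEW arrays were above the BD arrays only. The means were 8.42 ± 1.93 in sham lungs, 9.32 ± 0.42 in BD lungs, 8.52 ± 1.28 in SEW, and 10.36 ± 0.50 in BD/SEW, so the SD within sham was close to the difference between the lowest and the highest group mean.

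Across genes, each BD/SEW array had 6 of the 6 genes above the gene's own median over the 12 arrays. SEW replicates 1 and 3 had 0 of 6 above it and SEW replicate 2 had 2. The sham arrays had 5, 1 and 1, and the BD arrays 3, 1 and 5. By this count the sham and BD arrays overlapped.

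**Figure D1:**
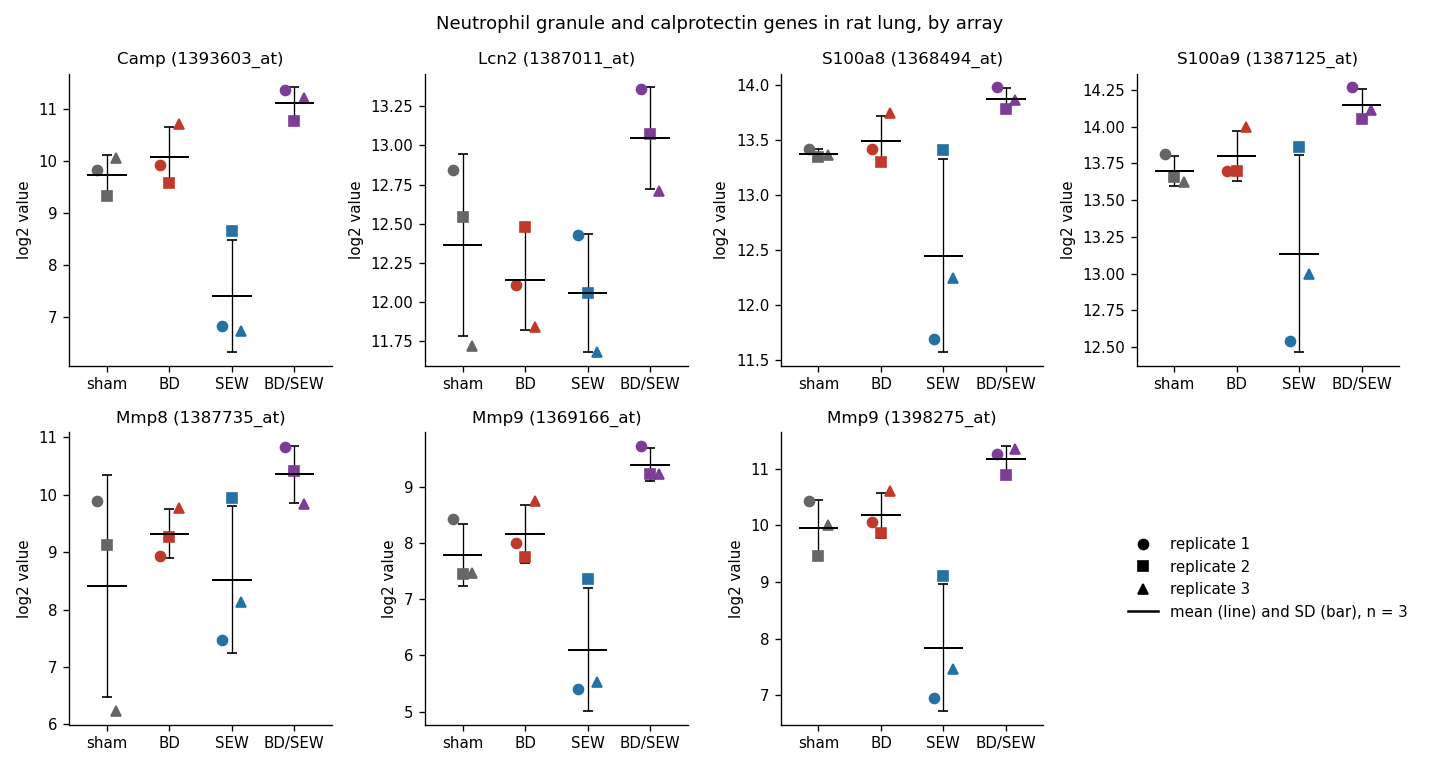
Log2 value of each probe set (vertical axis) on the 12 arrays, by group (horizontal axis), with replicates 1 to 3 as circle, square and triangle, the mean as a line and the SD as a bar (n = 3). Camp, S100a8, S100a9 and both Mmp9 probe sets have their 3 highest arrays in BD/SEW, while in Mmp8 sham replicate 3 stands at 6.23.

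BD against sham asks what brain death did to these genes in the lung without the agonist. None of the 6 genes was called at an adjusted p under 0.05 (limma, Benjamini-Hochberg over 14217 genes), where 0.591% of all genes were, and 0 of 6 had an unadjusted p under 0.05, against 5.32% of all genes with a higher and 5.70% with a lower mean. The arrays of both groups overlapped in all 6 genes, while 15.7% of all genes showed no overlap. Camp differed by 0.34 ± 0.46 (log2 difference ± SE, limma adjusted p = 0.85) and Mmp9 by 0.21 ± 0.45 (limma adjusted p = 0.92). Lcn2 had the only lower mean, by -0.22 ± 0.29. The calprotectin genes differed by 0.11 ± 0.32 in S100a8 and 0.10 ± 0.25 in S100a9. Mmp8 differed by 0.91 ± 0.83, and by -0.19 without sham replicate 3. The intervals still allow sizeable changes, since the 95% interval ran from -0.66 to 1.34 in Camp and from -0.58 to 0.81 in S100a8.

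SEW against sham asks what the agonist did without brain death, but any difference in surgery or time of sampling cannot be told apart from it. Camp and Mmp9 fell. Camp fell by 2.34 ± 0.46 log2 units, 5.08-fold (limma adjusted p = 0.018), and Mmp9 fell by 2.12 ± 0.45, 4.35-fold (limma adjusted p = 0.024). These 2 of 6 genes stand beside 2.43% of all genes called lower, and beside 10.6% of all genes whose SEW arrays all lay below the sham arrays. S100a8 (-0.93 ± 0.32, limma adjusted p = 0.098) and S100a9 (-0.56 ± 0.25, limma adjusted p = 0.18) had lower means that were not called. Lcn2 differed by -0.31 ± 0.29 and Mmp8 by 0.10 ± 0.83. Before adjustment 4 of 6 genes had a p under 0.05 with a lower mean, against 9.99% of all genes.

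SEW replicate 2 lay above the other SEW arrays in all of these genes except Lcn2. Without SEW replicate 2, S100a8 (-1.41 ± 0.16, limma adjusted p = 0.0015) and S100a9 (-0.93 ± 0.14, limma adjusted p = 0.0077) were called as well, which made 4 genes, and Camp was at -2.97 ± 0.31 and Mmp9 at -2.75 ± 0.29. Without sham replicate 3 no gene was called (limma adjusted p = 0.062 for Camp and 0.068 for Mmp9). Without sham replicate 1, SEW replicate 1 or SEW replicate 3, Camp alone was called, and a fit of the sham and SEW arrays alone called 0 genes (limma adjusted p = 0.075 for Camp and 0.11 for Mmp9). The second Mmp9 probe set gave -1.68 ± 0.47 (limma adjusted p = 0.080 over all probe sets). The cardiac mean was 9.42 to 10.38 in sham and 5.82 to 7.44 in SEW. With that mean as a covariate the difference was -2.72 in Camp (limma adjusted p = 0.14) and -2.21 in Mmp9 (limma adjusted p = 0.23).

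The agonist after brain death was examined by setting BD/SEW against BD. All 6 genes were higher in every BD/SEW array than in every BD array, a lack of overlap that 7.90% of all genes had in this direction. None was called by limma, where 0.0141% of all genes were, and 3 of 6 had an unadjusted p under 0.05 with a higher mean, against 3.73% of all genes. Camp differed by 1.05 ± 0.46 (limma adjusted p = 0.91), Lcn2 by 0.90 ± 0.29 (limma adjusted p = 0.81) and Mmp9 by 0.99 ± 0.45 (limma adjusted p = 0.91). These are the 3 genes past the unadjusted threshold. Mmp8 differed by 1.04 ± 0.83, S100a8 by 0.39 ± 0.32 and S100a9 by 0.34 ± 0.25. In size, 0.169% of all genes had a larger difference than Camp, 0.190% than Mmp8, 0.232% than Mmp9 and 0.331% than Lcn2. For S100a8 and S100a9 the shares were 3.50% and 4.42%.

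Brain death in the presence of the agonist was examined by setting BD/SEW against SEW, with the same limit on surgery and time of sampling. Camp, Mmp9, S100a8 and S100a9 rose. Camp rose by 3.73 ± 0.46, 13.3-fold (limma adjusted p = 0.00059), and Mmp9 by 3.32 ± 0.45, 10.01-fold (limma adjusted p = 0.0010). S100a8 rose by 1.43 ± 0.32, 2.69-fold (limma adjusted p = 0.015), and S100a9 by 1.01 ± 0.25, 2.01-fold (limma adjusted p = 0.024). Of all genes, 4.75% were called higher. Lcn2 differed by 0.99 ± 0.29 (limma adjusted p = 0.053) and Mmp8 by 1.84 ± 0.83 (limma adjusted p = 0.20). In 5 of 6 genes the BD/SEW arrays all lay above the SEW arrays, against 13.2% of all genes, and Mmp8 was the exception through SEW replicate 2.

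Camp and Mmp9 kept the call in all 12 fits that each leave out 1 array. S100a8 lost it without SEW replicate 3 (limma adjusted p = 0.056) and without BD/SEW replicate 1 (limma adjusted p = 0.061). S100a9 was called in 7 of the 12 fits and lost the call without any 1 of the BD/SEW arrays and without SEW replicate 1 or 3. Without SEW replicate 2 the differences were larger, at 4.36 in Camp, 3.95 in Mmp9, 1.91 in S100a8 and 1.37 in S100a9. With the cardiac covariate Camp was at 3.76 and Mmp9 at 3.33, and the count of called genes was 4 as before. The second Mmp9 probe set rose by 3.30 ± 0.47 (limma adjusted p = 0.0019).

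**Figure D2:**
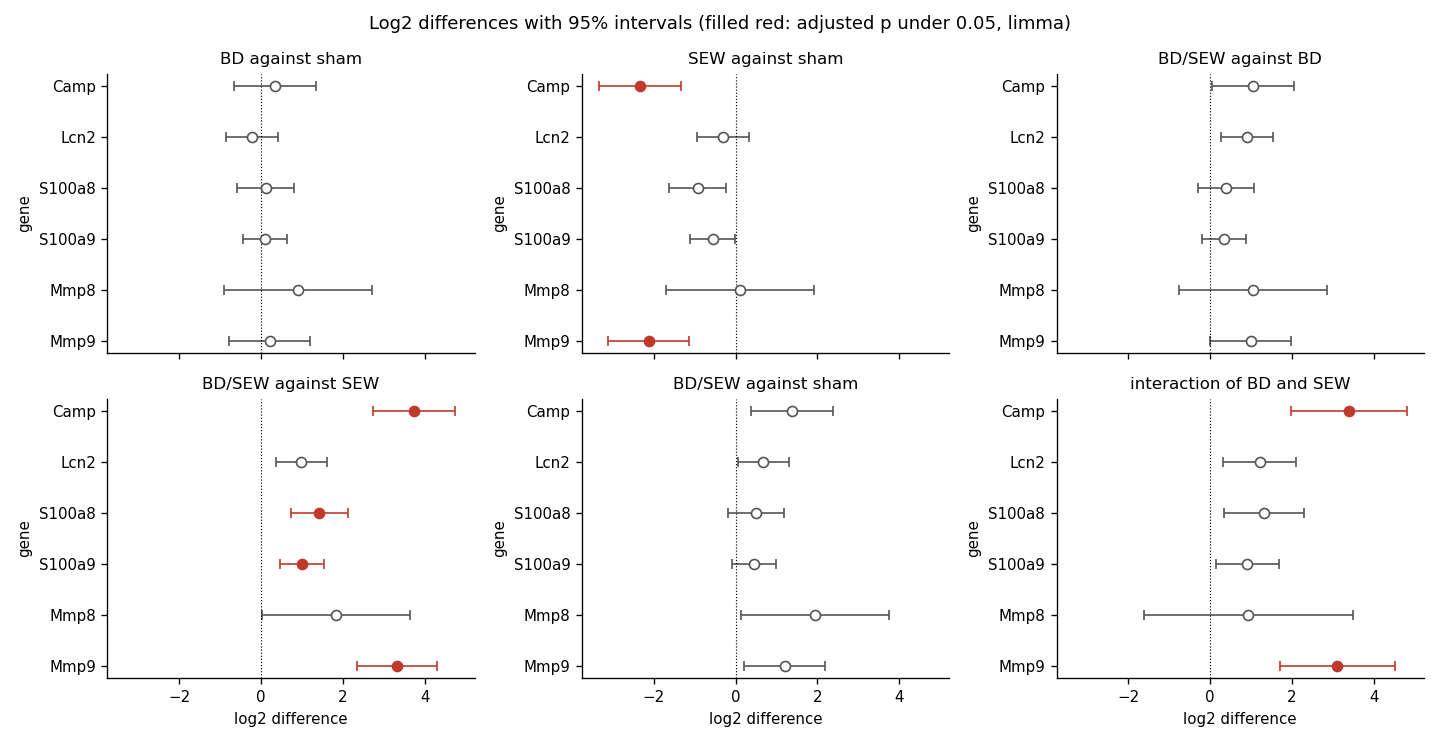
Log2 difference of each gene (points, with 95% intervals from limma) in the 5 comparisons and the interaction, filled red where the adjusted p was under 0.05. Red points stand at -2.34 and -2.12 in SEW against sham, at 1.01 to 3.73 in BD/SEW against SEW, and at 3.40 and 3.11 in the interaction.

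BD/SEW against sham sets the treated brain-dead lungs beside the controls. All 6 genes had the higher mean in BD/SEW, and 0 of 6 were called by limma, where 1.70% of all genes were called higher. Before adjustment 4 of 6 had a p under 0.05 with a higher mean, against 9.81% of all genes. Camp differed by 1.39 ± 0.46 (limma adjusted p = 0.14), Mmp9 by 1.2 ± 0.45 (limma adjusted p = 0.18) and Mmp8 by 1.94 ± 0.83 (limma adjusted p = 0.24). Lcn2 differed by 0.68 ± 0.29, S100a8 by 0.50 ± 0.32 and S100a9 by 0.45 ± 0.25. The arrays did not overlap in Camp, S100a8, S100a9 and Mmp9, which 13.7% of all genes shared in this direction. A fit of the sham and BD/SEW arrays alone called these 4 genes. Without SEW replicate 2, which lies in neither group but enters the shared estimate of the spread, Camp and Mmp9 were called (limma adjusted p = 0.024 and 0.032).

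The interaction tests whether the response to brain death differed with and without the agonist. It is the difference of BD/SEW against SEW less that of BD against sham. It shares its arrays, and the limit on surgery and time of sampling in SEW, with the other comparisons. Camp (3.40 ± 0.65, limma adjusted p = 0.037) and Mmp9 (3.11 ± 0.64, limma adjusted p = 0.047) were called, where 0.851% of all genes were called with a positive interaction. The values of the other genes were 1.31 ± 0.45 in S100a8, 1.21 ± 0.41 in Lcn2, 0.91 ± 0.35 in S100a9 and 0.93 ± 1.17 in Mmp8, with limma adjusted p from 0.24 to 0.79. Before adjustment 5 of 6 had a p under 0.05 with a positive value, against 6.15% of all genes. With SEW replicate 2 left out, S100a8 and S100a9 were called too. Camp kept its call in 2 of 12 fits without 1 array (without BD replicate 3 and without SEW replicate 2) and Mmp9 in 1 (without SEW replicate 2), and neither passed with the cardiac covariate (limma adjusted p = 0.052 and 0.090).

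**Figure D3:**
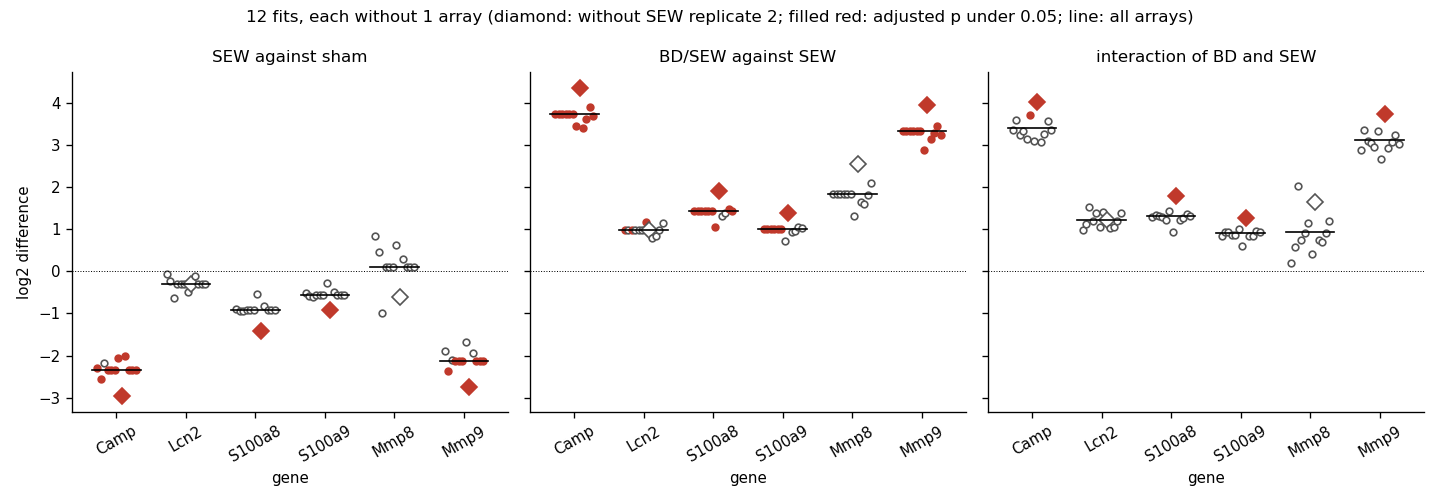
Log2 difference of each gene (vertical axis) in 12 fits that each leave out 1 array, for SEW against sham, BD/SEW against SEW and the interaction; diamonds mark the fit without SEW replicate 2, red fill an adjusted p under 0.05, and lines the fit with all arrays. Camp and Mmp9 are red in all 12 fits of BD/SEW against SEW, and in 2 and 1 fits of the interaction.

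The 6 genes lay at different distances from each other over the arrays. Likeness was measured as the root mean square difference between log2 values over 12 arrays, each gene centred on its own mean. It is a description over arrays that share groups and libraries. The values are not scaled, so the distance mixes the size of a gene's changes with their order over the arrays. S100a8 lay 0.89 from Camp, although both had the 3 BD/SEW arrays highest and SEW replicates 1 and 3 lowest. Camp and Mmp9 lay 0.26 apart, while Mmp8 lay 1.32 from Camp and 1.16 from Mmp9, and Lcn2 lay 1.30 from Camp. For scale, the SD of Camp over the 12 arrays was 1.53, that of Mmp9 1.38 and that of Mmp8 1.31.

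Outside the 6 genes, the gene nearest to both Camp (0.26) and Mmp9 (0.34) was Batf, a basic leucine zipper transcription factor of leukocytes. Batf was 10.16, 9.63 and 9.66 in sham lungs, 10.15, 9.96 and 10.74 in BD lungs, 6.91, 8.54 and 6.54 in SEW, and 11.31, 11.09 and 10.87 in BD/SEW. It shows the same low SEW arrays, with replicate 2 between, and the same high BD/SEW arrays. The next nearest to Camp were Zc3h12a (0.45), which encodes an RNase that degrades cytokine mRNAs, and Birc3 (0.53), an inhibitor of apoptosis. The next nearest to Mmp9 were Lypd8l1 (0.39) and Tnfaip3 (0.44), which encodes a feedback inhibitor of NF-kB signalling.

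Mmp8 had other neighbours. They were Cxcr2 (0.52), the chemokine receptor of neutrophils, Fgr (0.61), a Src-family kinase of myeloid cells, and Csf3r (0.63), the receptor for granulocyte colony-stimulating factor. Cxcr2 was 8.44, 7.98 and 6.59 in sham lungs, 7.71, 7.79 and 8.43 in BD lungs, 6.70, 8.30 and 6.97 in SEW, and 9.40, 8.78 and 8.65 in BD/SEW. Csf3r was 9.85, 9.69 and 8.55 in sham lungs, 9.34, 9.40 and 10.04 in BD lungs, 7.68, 10.63 and 8.05 in SEW, and 10.66, 10.46 and 10.05 in BD/SEW. In Mmp8, Cxcr2 and Csf3r alike, sham replicate 3 was the lowest sham array and SEW replicate 2 the highest SEW array.

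**Figure D4:**
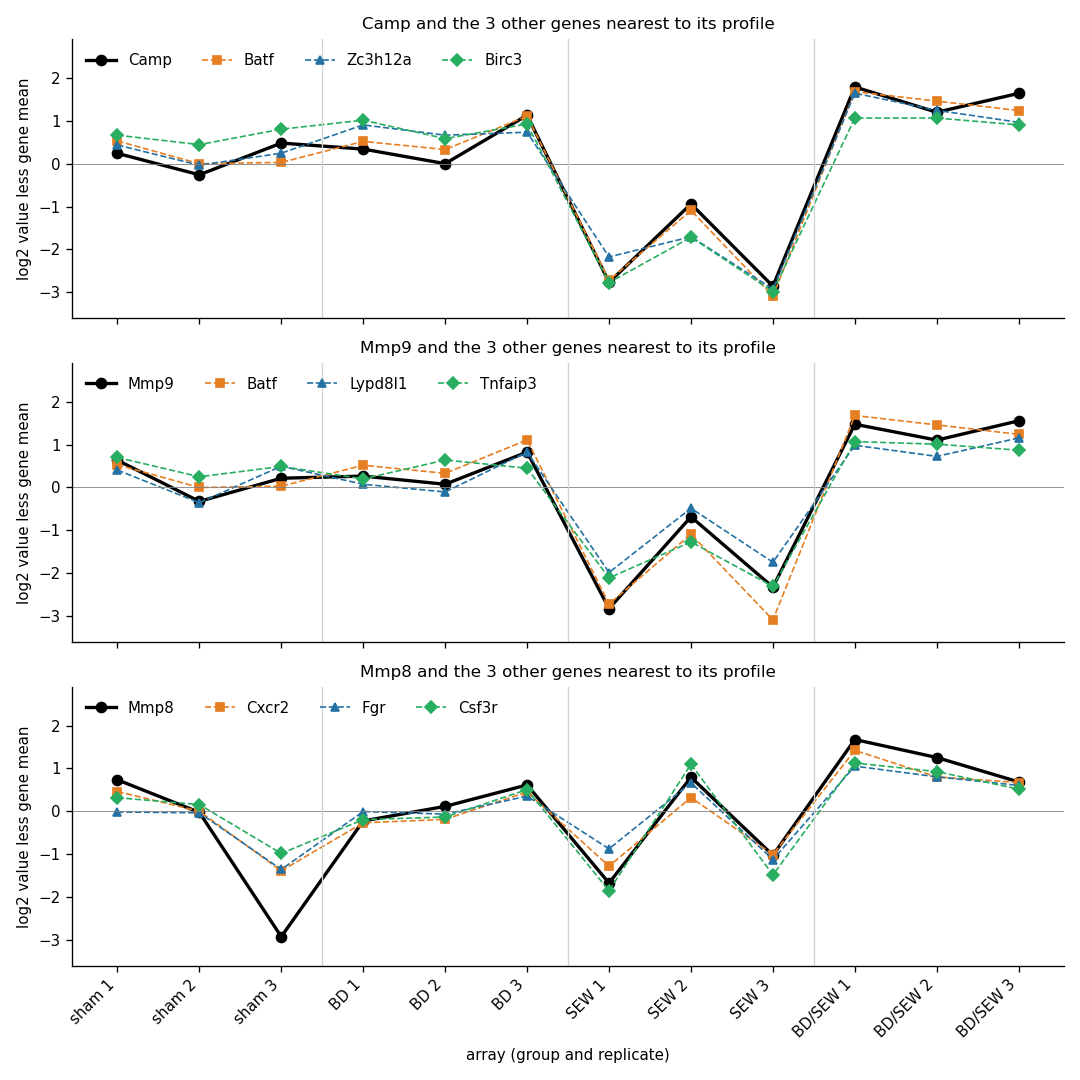
Log2 value less the gene's mean over 12 arrays (vertical axis) for Camp, Mmp9 and Mmp8 in black and the 3 nearest other genes in colour, by array; lines only join the points of a gene, since replicates have no order. Camp, Mmp9 and Batf are low in all 3 SEW arrays, while Mmp8, Cxcr2, Fgr and Csf3r have SEW replicate 2 above their mean and sham replicate 3 below it.

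Other neutrophil genes were taken from lists of further granule and oxidase genes (15 of 27 listed genes measured) and of surface receptors (13 of 20). In BD against sham 0 genes of either list were called by limma, 0 had an unadjusted p under 0.05, and the list medians were 0.0067 and 0.0233, against 0.0033 over all genes. Of all genes, 0.591% were called there, and 5.32% had an unadjusted p under 0.05 with a higher and 5.70% with a lower mean. In SEW against sham the medians were -0.0467 and -0.287, against 0.0167. There 1 granule gene was called, Anxa3, an annexin that neutrophils and lung endothelium express, which rose by 0.77 ± 0.18 (limma adjusted p = 0.032). By limma 0 receptors were called, and 2 had a higher and 2 a lower mean at an unadjusted p under 0.05. Such a p with a lower mean was found in 9.99% of all genes. Anxa3 kept this call in 6 of 12 fits without 1 array. In that comparison 830 of 14217 genes were called in either direction.

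Against SEW, the BD/SEW arrays gave larger differences: 5 of the 15 granule genes rose and 1 fell (median 0.407, against -0.0067 over all genes). Among all genes 4.75% were called higher. Padi4, the enzyme that citrullinates histones in neutrophil extracellular traps, was 6.26, 7.02 and 6.46 in SEW, and 8.63, 8.27 and 8.03 in BD/SEW, and rose by 1.73 ± 0.26 (limma adjusted p = 0.0017). Pglyrp1, a peptidoglycan-binding granule protein, was 8.70, 10.38 and 8.83 in SEW, and 11.45, 11.11 and 11.06 in BD/SEW, and rose by 1.90 ± 0.40 (limma adjusted p = 0.011). Both had SEW replicate 2 as the highest SEW array, as in Camp and Mmp9. Ncf4 and Cybb, subunits of the NADPH oxidase, rose by 1.29 ± 0.25 and 1.10 ± 0.23, and Srgn, the granule proteoglycan serglycin, by 0.41 ± 0.07. Anxa3 fell by 0.79 ± 0.18. Of the 13 receptors, Tlr2 rose by 2.19 ± 0.37 (limma adjusted p = 0.0032) and Ptafr, the receptor for platelet-activating factor, by 1.00 ± 0.19 (limma adjusted p = 0.0072; median 0.573). Tlr4 (-1.09 ± 0.37) and Cxcr1 (-0.79 ± 0.31) had lower means that were not called, and 11 of the 13 receptors had higher means. Without SEW replicate 2 the count of receptors called higher was 7 in place of 2.

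When BD/SEW was set against BD, 0 genes of these lists were called by limma. In each list 5 had an unadjusted p under 0.05 with a higher mean, against 3.73% of all genes. The means of all 15 granule genes and all 13 receptors were higher in BD/SEW, with medians of 0.290 and 0.640 against 0.0067 over all genes. The arrays of 8 and 9 of them did not overlap, against 7.90% of all genes in this direction. Against sham, where 1.70% of all genes were called higher, only Padi4 was called, which rose by 1.52 ± 0.26 (limma adjusted p = 0.012). Padi4 was 7.24, 6.71 and 6.42 in sham, so all 3 BD/SEW arrays lay above it. In the interaction 0 genes of both lists were called by limma with all arrays, and 4 granule genes and 3 receptors were without SEW replicate 2. With all arrays 7 granule genes and 4 receptors had an unadjusted p under 0.05 with a positive value, against 6.15% of all genes. There 1 granule gene had such a p with a negative value.

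The cytokines, chemokines and growth factors that draw and expand neutrophils were measured for 11 of 12 listed genes. In BD against sham Csf3, granulocyte colony-stimulating factor, fell by 1.74 ± 0.32 on the log2 scale (limma adjusted p = 0.037), and was called in 6 of 12 fits without 1 array. No other gene of the list was called there, where 0.591% of all genes were. The means of 8 of the 11 genes were higher in BD, most in Tnf (1.28 ± 0.34, limma adjusted p = 0.13). Before adjustment 3 genes had a p under 0.05 with a higher mean and 1 with a lower mean, against 5.32% and 5.70% of all genes. Il6 was 8.23, 7.99 and 10.04 in sham and 4.57, 7.28 and 4.57 in SEW. SEW replicates 1 and 3 thus lay below the lower quartile of the arrays, where signal over background was not measured, and differences of Il6 against SEW have no exact size. In SEW against sham Il6 (-3.28 ± 0.74), Cxcl2 (-2.72 ± 0.63), Csf3 (-2.49 ± 0.32) and Cxcl1 (-2.02 ± 0.36) fell, all with limma adjusted p from 0.0035 to 0.033, while Cxcl3, another neutrophil chemokine, rose by 0.74 ± 0.17, and the list median was -1.23. Among all genes 2.43% were called lower in SEW against sham. Csf3 and Cxcl1 kept the call in 12 of 12 fits, Il6 in 8 and Cxcl2 in 5, and with the cardiac covariate Csf3 alone was called. Cxcl1 was 12.10, 12.13 and 12.55 in sham and 10.30, 10.89 and 9.53 in SEW.

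Of the 11 genes, 8 rose in BD/SEW against SEW (median 1.67), where 4.75% of all genes were called higher. Among the 8 were Tnf (3.75 ± 0.34), Cxcl2 (3.28 ± 0.63), Il1b (3.16 ± 0.53) and, with the limit given above, Il6 (3.92 ± 0.74). Of these 8, Pf4 and Ppbp are platelet genes as well. In BD/SEW against BD 0 genes were called by limma, and 11 of 11 means were higher (median 0.813). Of these, 7 had an unadjusted p under 0.05, against 3.73% of all genes with a higher mean. In BD/SEW against sham Tnf rose by 2.5 ± 0.34 (limma adjusted p = 0.0035), Pf4 by 1.41 ± 0.26 and Csf2 by 0.86 ± 0.21, the last called in 2 of 12 fits. There 1.70% of all genes were called higher. Tnf was 8.16, 7.72 and 7.65 in sham lungs, 9.09, 9.08 and 9.19 in BD lungs, 6.55, 7.49 and 5.75 in SEW, and 10.03, 10.45 and 10.55 in BD/SEW. In the interaction Csf3 (3.28), Cxcl1 (2.75), Tnf (2.47) and Il6 (5.35, which rests on the same low SEW values) were called, Csf3 in 12 of 12 fits without 1 array and the others in 2 or 3. Among all genes 0.851% were called with a positive interaction.

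Cells other than neutrophils can carry some of these transcripts. Of 14 monocyte and macrophage markers 10 were measured, and their mean was 8.59 to 9.10 in sham, 8.91 to 8.99 in BD, 8.77 to 9.39 in SEW and 8.92 to 9.19 in BD/SEW, with overlap between all groups. Only Cd163, a haemoglobin scavenger receptor of macrophages, was called among them. It fell by 0.57 ± 0.13 in SEW against sham (limma adjusted p = 0.028), and rose by 0.92 ± 0.13 in BD/SEW against SEW (limma adjusted p = 0.0011). Markers of other cell types were also called in some comparisons. Of 8 eosinophil, basophil and mast cell markers, Hdc, histidine decarboxylase, Prg2, an eosinophil granule protein, and Mcpt8, a basophil protease, fell in SEW against sham (-1.18 ± 0.22, -0.70 ± 0.14 and -0.67 ± 0.11). The same 3 rose in BD/SEW against SEW (1.18 ± 0.22, 0.91 ± 0.14 and 2.13 ± 0.11) and were called in the interaction. The shares of all genes called were 2.43% lower in SEW against sham, 4.75% higher in BD/SEW against SEW and 0.851% with a positive interaction. Mcpt8 read 5.10 to 5.40 in SEW, below the lower quartile of the arrays. Prg2 also lay below the lower quartile on all 3 SEW arrays. The sizes of both genes against SEW and in the interaction are therefore not exact. Mcpt8 also rose in BD/SEW against BD, by 1.73 ± 0.11 (limma adjusted p = 5.7e-05). Its values on BD replicates 1 and 3 (5.58 and 5.54) lay below the lower quartile of these arrays, so this size is not exact either.

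Of 7 erythroid and platelet markers, 4 rose in BD/SEW against SEW, the platelet integrin gene Itga2b (1.83 ± 0.29), Pf4 (1.67 ± 0.26), Ppbp (1.54 ± 0.38) and Gp9 (0.95 ± 0.19). Ppbp kept this call in 8 of 12 fits without 1 array. Its value on BD/SEW replicate 3 (6.10) lay within the sham arrays (5.94 to 6.11). On SEW replicate 3 (5.46) it lay below the lower quartile of that array, so its size is not exact. Itga2b, Pf4 and Gp9 rose in BD/SEW against sham (1.46 ± 0.29, 1.41 ± 0.26 and 0.86 ± 0.19), and the list mean was 7.70 to 8.32 in sham, 7.54 to 8.53 in SEW and 8.91 to 9.62 in BD/SEW. Among all genes 4.75% were called higher against SEW and 1.70% against sham. Of 9 airway epithelial markers, the secreted-protein genes Bpifa1 (-5.37 ± 1.2), Bpifb1 (-2.60 ± 0.69) and Muc5b (-2.16 ± 0.55) fell in SEW against sham. Of 12 adipose markers 5 fell there. In BD/SEW against SEW limma called 0 airway and 0 adipose markers, and 0 and 1 had an unadjusted p under 0.05. Of 9 endothelial markers, Egfl7 (0.87 ± 0.17), Cldn5 (0.58 ± 0.13) and Ramp2 (0.53 ± 0.13) rose in SEW against sham, where 484 of 14217 genes were called higher. Cldn5 (-0.83 ± 0.13) and Ptprb (-0.74 ± 0.12) fell in BD/SEW against SEW. All 10 alveolar markers had the higher mean in SEW against sham (median 0.292, against 0.0167 over all genes), and limma called 0.

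The mean of the 13 neutrophil receptors was 8.52 to 9.26 in sham, 8.83 to 9.19 in BD, 9.34 to 9.71 in BD/SEW and 8.55, 9.61 and 8.48 in SEW, where replicate 2 was again the high array. The mean of the 6 granule and calprotectin genes was 10.83 to 11.70 in sham, 11.36 to 11.78 in BD, 9.65, 11.17 and 9.87 in SEW and 12.16 to 12.51 in BD/SEW. The part of these cell types in the differences was not tested.

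**Figure D5:**
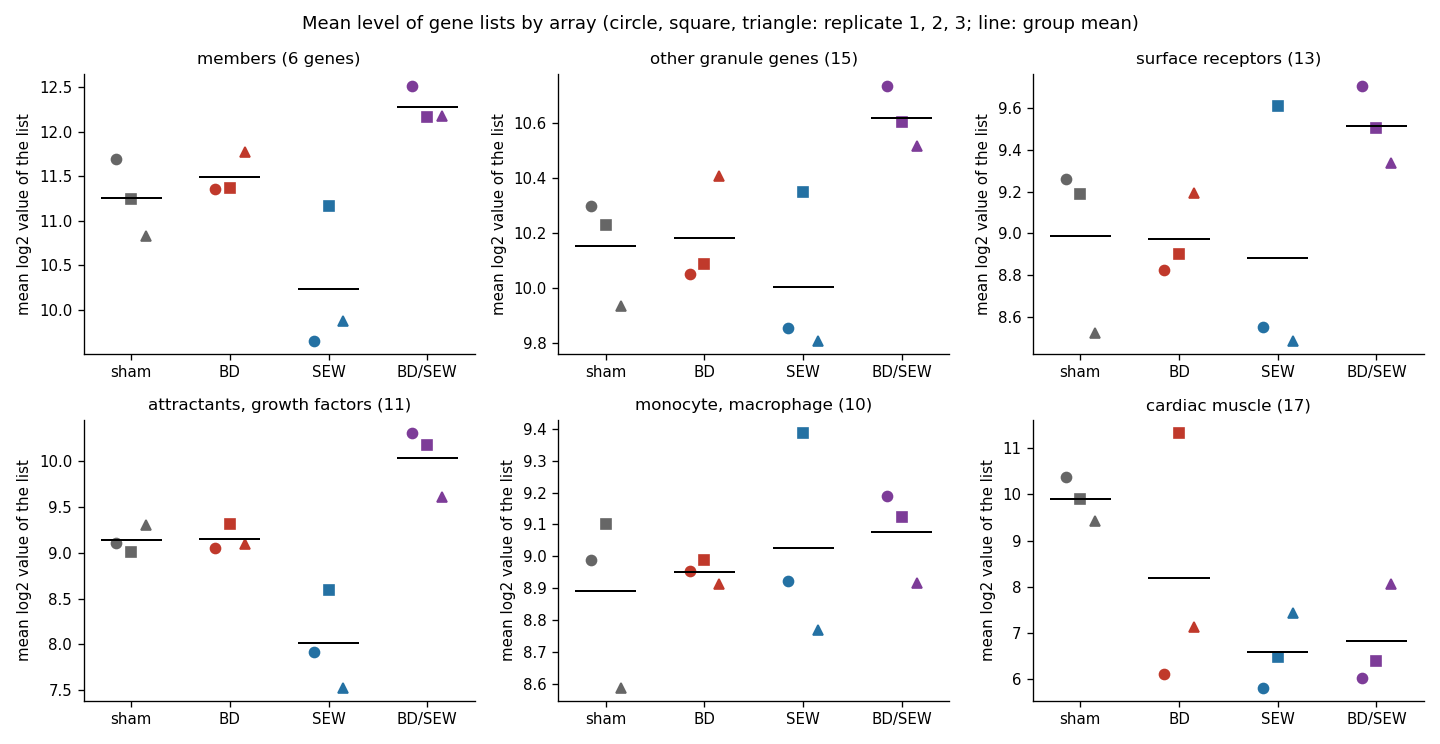
Mean log2 value of gene lists (vertical axis) on each array, by group (horizontal axis), with replicates 1 to 3 as circle, square and triangle and the group mean as a line. The 6 granule and calprotectin genes read 12.16 to 12.51 in BD/SEW and 9.65, 11.17 and 9.87 in SEW, while the macrophage markers overlap between all groups.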

How the data were processed

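Lung RNA of 12 rat samples (4 groups of 3) was measured on Affymetrix arrays from 6 ug of total RNA each. The authors deposited log2 probe set values, and RMA, MAS5 and affy stand in the submitters' processing notes, with neither version nor role. Precision is limited by the number of arrays.

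Of 31042 probe sets, the annotation table gave 1 symbol to 20826, several to 436 and none to 9780, and 20758 matched RefSeq by gene ID. In the case of several probe sets (4525 genes) the brightest on average stood for the gene, giving 14217 genes. Values were fitted with limma 3.58.1 in R 4.3.3, with a mean per group over all 12 arrays, variances moderated with a mean trend and Benjamini-Hochberg adjustment over all genes, two-sided. Genes with an adjusted p under 0.05 are called. The fit was tested on simulated data.

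Named genes are all 9 members, up to 4 called genes per list and comparison, and the 3 nearest genes to each of the 3 members with the largest range. The members and lists were chosen with earlier results of these data known. Further genes of a list (such as Srgn, Anxa3 and Cxcl3), and which lists are shown by gene, were chosen after their values were seen. Alternatives were a fit of the compared arrays alone, the replicate block, array weights, a cardiac covariate, every probe set, filters, no trend, a stricter threshold and fits without arrays. The fits of the listed genes under these alternatives were added after seeing the data.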

Additional observations from a re-analysis of the deposited data

Results flagged for a closer look

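The brain-death effect with the agonist (BD/SEW against SEW) differed from that without it (BD against sham) in Camp, by an interaction of 3.40 ± 0.65 (log2, limma adjusted p = 0.037), the effect being 3.73 with the agonist and 0.34 without it. Leaving out 1 array gave 3.06 to 4.02, with an adjusted p from 0.00097 to 0.11, and the call was kept in 2 of 12 fits.

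In Mmp9 the interaction was 3.11 ± 0.64 (limma adjusted p = 0.047), with effects of 3.32 and 0.21. Leaving out 1 array gave 2.67 to 3.74, with an adjusted p from 0.0010 to 0.13, and the call was kept only without SEW replicate 2. The second Mmp9 probe set gave 2.92 ± 0.67 (limma adjusted p = 0.10 over all probe sets).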

How the results depend on the processing

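With 3 arrays per group, 1 array can decide a call, and signal over background was not measured. Leaving out each array in turn gave 0 to 4 called members in SEW against sham (2 with all arrays), 2 to 5 in BD/SEW against SEW (4), 0 to 2 in BD/SEW against sham (0), 0 to 4 in the interaction (2), and 0 in BD against sham and BD/SEW against BD. In SEW against sham the count was 0 with the compared arrays only, 0 with the cardiac covariate, 0 at an adjusted p under 0.01, 4 with array weights and 5 without 3 arrays (the second of BD, the second of SEW and the third of sham). The stricter threshold left 2 in BD/SEW against SEW. For BD/SEW against sham the count was 4 from the compared arrays alone, 1 with the replicate block, 2 with array weights and 2 without the 3 arrays. In the interaction it was 1 with the replicate block, 1 without the mean trend, 5 with array weights, 6 without the 3 arrays, and 0 over every probe set, with the cardiac covariate and at an adjusted p under 0.01. The cause of these shifts was not tested. With the replicate block Lcn2 was the member called in both comparisons, and in the interaction Camp (limma adjusted p = 0.053) and Mmp9 (limma adjusted p = 0.070) were not. The numbers share no stated animal or batch, and deviations of same-numbered arrays correlated at -0.19 to 0.38, over 0.1 in 8 of 18 pairs, with the own number as the best match in 20 of 36.

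Among members, Mmp8 changed sign with array weights, to -0.0471 in BD against sham and -1.13 in SEW against sham, and without the 3 arrays, to -0.16 and -1.705 (limma adjusted p = 0.044 for the last). Leaving out 1 array gave ranges that cross 0 in BD against sham, which were -0.55 to 0.0133 in Lcn2, -0.0133 to 0.21 in S100a8, -0.19 to 1.64 in Mmp8 and -0.0367 to 0.44 in Mmp9, and in SEW against sham -0.99 to 0.84 in Mmp8. No other member changed sign under the alternatives run. Over all genes, the calls under the alternatives ran from 13 to 499 in BD against sham (84 in the reported fit), 24 to 1556 in SEW against sham (830), 0 to 8 in BD/SEW against BD (2), 629 to 2506 in BD/SEW against SEW (1392), 12 to 2685 in BD/SEW against sham (408) and 24 to 464 in the interaction (135). Without 1 array they ran from 26 to 227, 321 to 1006, 1 to 5, 790 to 1811, 91 to 634 and 38 to 235.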

Other observations

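Of 11 measured other S100 genes, S100b alone was called in any comparison, and it fell by 2.04 ± 0.53 on the log2 scale in SEW against sham (limma adjusted p = 0.046). S100b was 8.78, 7.74 and 8.81 in sham lungs, 6.54, 8.87 and 6.59 in BD lungs, 6.82, 6.01 and 6.37 in SEW, and 6.56, 6.42 and 6.77 in BD/SEW. It was thus high in sham and on the second BD array. The sham arrays and that BD array also had higher cardiac and adipose means than all other arrays. The part of these tissues in the difference was not tested. Of 12 relatives of the proteases and their inhibitors (other matrix metalloproteases, TIMPs and Reck), only Mmp12, macrophage elastase, was called, and it fell by 0.63 ± 0.17 in SEW against sham (limma adjusted p = 0.049). These are 1 gene of each list, where 2.43% of all genes were called lower. Among 8 genes listed as partners of calprotectin and lipocalin 2 (receptors, the adaptor Myd88 and Anxa1), Bsg, which encodes a receptor of S100A9, rose by 0.77 ± 0.17 in SEW against sham. Myd88, the adaptor downstream of Toll-like receptors, fell by 0.49 ± 0.12 there and rose by 0.81 ± 0.12 in BD/SEW against SEW.

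Of 8 measured transcription factors and receptors of granulopoiesis, in BD against sham Cebpb fell by 1.24 ± 0.15 (limma adjusted p = 0.0039, called in 12 of 12 fits without 1 array). It was 12.97, 12.57 and 13.23 in sham lungs, 11.59, 11.67 and 11.80 in BD lungs, 12.32, 12.44 and 12.21 in SEW, and 12.29, 12.05 and 12.04 in BD/SEW. The BD arrays were thus the lowest of the 12 and the sham arrays the highest. Cebpb was also called lower in SEW against sham (-0.60 ± 0.15, limma adjusted p = 0.040) and in BD/SEW against sham (-0.80 ± 0.15, limma adjusted p = 0.019). Its interaction was called as well (1.04 ± 0.21, limma adjusted p = 0.042). These calls were kept in 2, 9 and 2 of 12 fits without 1 array. In BD against sham 0.591% of all genes were called. Runx1 fell by 0.91 ± 0.14 in SEW against sham and rose by 1.26 ± 0.14 in BD/SEW against SEW, both called in 12 of 12 fits.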
